A study of Mus musculus with 12 samples.

Results

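The Ly6 genes encode small surface proteins with a shared cysteine-rich fold, and 8 of them were followed here across sorted epithelial cells of the mouse prostate: Ly6d, Ly6a, Ly6e, Ly6c1, Ly6c2, Ly6k, Psca and Lypd3. They were taken by gene symbol from the 48795 gene identifiers of the count table, and 7 of the 8 passed the filter on low counts. The set was chosen with earlier results of these data known. The mice were wild type, of strain C57BL/6 and 6 to 8 weeks of age, with no further allele or treatment named. Before the luminal sort, cells with CD31 of endothelium, CD45 of leukocytes or Ter119 of red cells on their surface were gated out. Surface LY6D then split the luminal cells into LY6D+ and LY6D- cells, and surface SCA1, the product of Ly6a, split each of these into SCA1low, SCA1int (intermediate) and SCA1high cells. Each of the 6 populations had 2 libraries, and the labels do not say whether these came from separate animals or pools. In the column names all replicate 1 libraries share 1 prefix and all replicate 2 libraries another, whose meaning is not given. Values are CPM, counts of 3' tags scaled to a common library size with TMM factors, with replicate 1 given before replicate 2.

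Most Ly6 proteins are held in the outer leaflet of the plasma membrane by a glycosylphosphatidylinositol (GPI) lipid anchor, and they share a disulfide-bonded 3-finger fold with the urokinase receptor. Many serve as surface markers by which cells are sorted, LY6C on monocytes and SCA1 on blood stem cells among them. In the mouse prostate SCA1 has been used to enrich cells with progenitor activity, and PSCA takes its name from the prostate. Several Ly6 genes, Ly6a and Ly6e among them, are induced by interferon.

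The genes lie close together. On mouse build GRCm38, 7 of the 8 are on chromosome 15, in the order Psca (74714839 to 74717069, plus strand), Ly6d (74762056 to 74763620, minus), Ly6k (74796874 to 74799986, minus), Ly6e (74955051 to 74959905, plus), Ly6a (74994877 to 74998031, minus), Ly6c1 (75044018 to 75048830, minus) and Ly6c2 (75108158 to 75111970, minus). Lypd3 is on chromosome 7 (24636550 to 24641118, plus). Ly6c1 and Ly6c2 are near-identical copies where the tags fall: the last 300 bases of their longest coding transcripts were 95.7% identical, with a shared run of 124 bases. Which of these 2 copies a tag came from is therefore uncertain. Ly6a was 84% identical to each of them over the same length, with shared runs of 36 and 37 bases, whereas Ly6a and Ly6e were 59.3% identical, with a longest shared run of 8 bases.

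Upstream of their annotated starts the windows of Ly6c1 and Ly6c2 matched less. Promoter sequences were at hand for 3 of the 8 genes (Ly6c1, Ly6c2 and Lypd3). Those of Ly6c1 and Ly6c2 are shown because these copies had different profiles across the libraries. Each line gives the 250 bases before the start, from RefSeq on GRCm38.p6, read on the minus strand, at chr15:75048838-75049087 for Ly6c1 and at chr15:75111972-75112221 for Ly6c2. Capitals mark matches to the motifs searched.
Ly6c1: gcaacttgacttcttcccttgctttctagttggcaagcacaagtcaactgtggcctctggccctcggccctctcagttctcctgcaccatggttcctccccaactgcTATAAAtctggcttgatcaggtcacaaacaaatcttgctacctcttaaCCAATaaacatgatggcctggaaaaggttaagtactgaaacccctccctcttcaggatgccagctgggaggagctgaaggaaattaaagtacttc
Ly6c2: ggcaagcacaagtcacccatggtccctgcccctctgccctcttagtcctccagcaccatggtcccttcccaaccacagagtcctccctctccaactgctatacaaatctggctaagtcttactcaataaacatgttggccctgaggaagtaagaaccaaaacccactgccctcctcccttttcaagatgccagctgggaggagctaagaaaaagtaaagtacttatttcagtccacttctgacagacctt
These were 68.4% identical, with a longest shared run of 20 bases. The opening bases of the Ly6c2 window lie further inside the Ly6c1 window. The identity over 250 bases therefore also counts a shift between the annotated starts. The motifs searched on both strands were the TATAAA box, the CCAAT box, the STAT pattern TTCNNNGAA, and the interferon response pattern, which is GAAA repeated after a gap of 2 bases. No overlap between the matches was found. Ly6c1 held TATAAA, starting 143 bases before the start, and CCAAT, 95 bases before it. In Ly6c2 and Lypd3 none of the 4 letter patterns was in the window. TATAAA was held by 12.4% of the 32841 RefSeq promoters searched, the CCAAT box by 33.9%, the STAT pattern by 7.02% and the interferon response pattern by 2.98%.

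The 12 libraries held 8436185 to 20022077 counts, of which the 8 genes took 0.0673%. At these depths 3 counts, the upper limit that a count of 0 allows, stood for 0.15 to 0.356 CPM. Luminal keratin genes were present in all libraries, Krt8 at 66.4 to 276 CPM and Krt18 at 108 to 502 CPM. With Krt19, Epcam and Cd24a these 5 luminal markers summed to 326 to 871 CPM in LY6D+ and 440 to 1337 CPM in LY6D- libraries. The 5 basal markers Krt5, Krt14, Krt15, Krt17 and Trp63 summed to 1497 to 4114 CPM in LY6D+ and 34.5 to 1516 CPM in LY6D- libraries. The basal sum was thus above the luminal sum in every LY6D+ library. Ptprc, which encodes CD45, reached 0.216 CPM at most, and Cd3e of T cells was at 0 in all 12. Of the other leukocyte markers, Csf1r was at 3.65 to 53.8 CPM, and Cd79a, Cd68 and Lyz2 reached at most 18.7, 12.8 and 6.36 CPM. Pecam1, which encodes the CD31 of the lineage gate, was at 573 and 401 CPM in LY6D- SCA1high cells against 2.43 to 159 CPM in the other populations. Libraries also shared particular genes: genes at 30 CPM or more in LY6D- SCA1high replicate 1, and at no more than 2% of that in other libraries, were found at a median of 10.5% of that level in LY6D- SCA1low replicate 2 (13 genes). From LY6D+ SCA1high replicate 2 to LY6D+ SCA1int replicate 2 this share was 6.44% (46 genes). The receiving LY6D- SCA1low replicate 2 and LY6D+ SCA1high replicate 2, the shallowest library, are called doubted below. In bulk libraries such as these, fewer cells with a transcript and less of it per cell cannot be told apart.

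**Figure D1:**
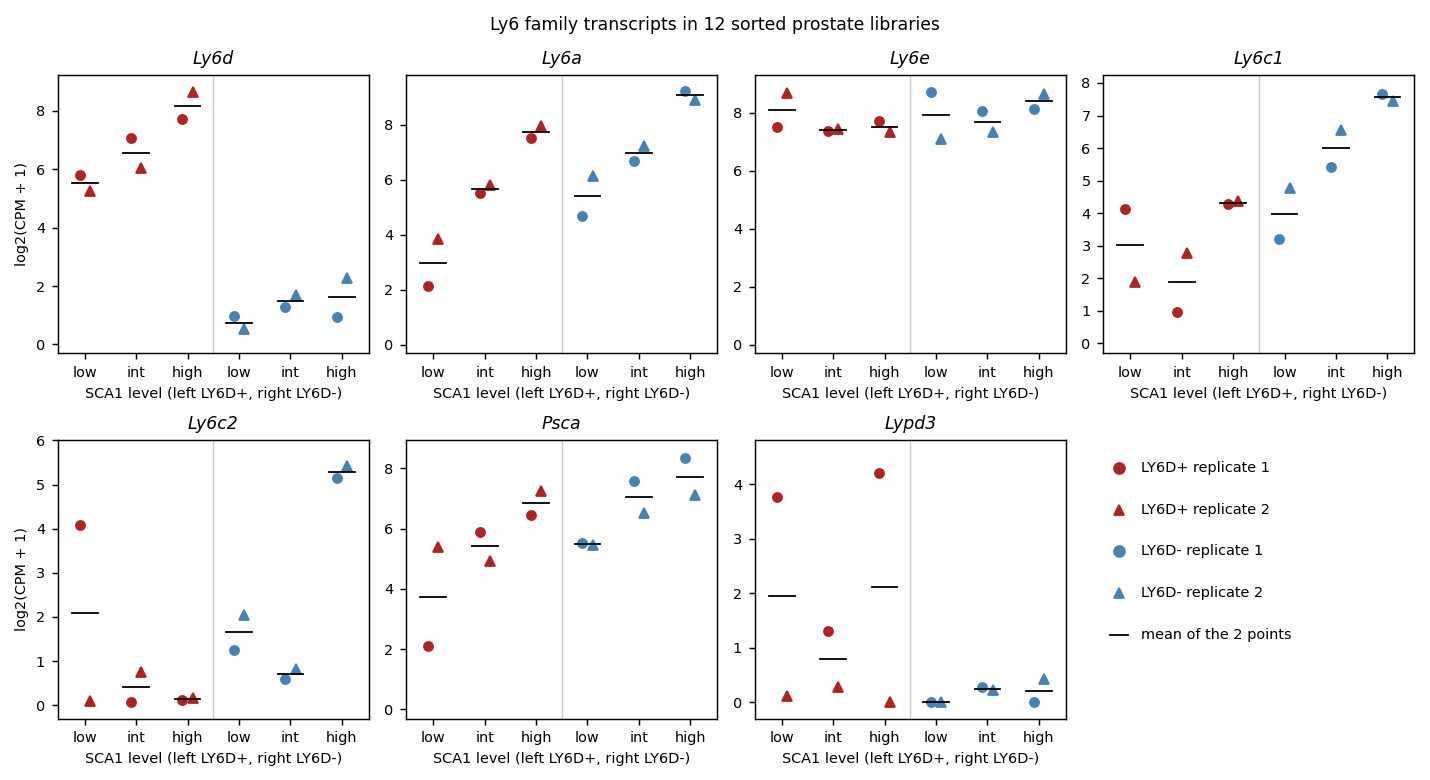
log2(CPM + 1) of the 7 detected Ly6 family genes in each library, by SCA1 level in LY6D+ (left, red) and LY6D- cells (right, blue); circles are replicate 1, triangles replicate 2 and the line the mean of both points. Ly6d is high in LY6D+ cells at every SCA1 level, Ly6a steps up with SCA1 in both LY6D states, and Ly6c2 and Lypd3 rest on few libraries.

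Ly6d, whose protein defined the first gate, is best known as a marker of lymphoid progenitors committed to the B cell path and of keratinocytes. In LY6D+ cells it stood at 54.7 and 37.0 CPM at SCA1low, at 134 and 64.4 CPM at SCA1int and at 209 and 397 CPM at SCA1high. In LY6D- cells it stood at 0.968 and 0.433 CPM at SCA1low, at 1.44 and 2.23 CPM at SCA1int and at 0.938 and 3.85 CPM at SCA1high. No LY6D- library came near the lowest LY6D+ library, and the log2 fold change averaged over SCA1 levels was 6.25 ± 0.71 (SE). This checks the labels and is no finding. What the gate did not fix is the course of Ly6d along SCA1 within LY6D+ cells, where the ranges of the 3 levels did not overlap and the means ran upward from 45.8 ± 12.5 over 99.4 ± 49.4 to 303 ± 133 CPM (SD, n = 2). SCA1high libraries lay above SCA1low libraries without overlap in LY6D+ cells for 13.1% of tested genes. The share with all 3 levels apart and stepping upward in LY6D+ cells was not computed. The log2 fold change of SCA1high over SCA1low was 2.73 ± 1.04 within LY6D+ cells and did not pass edgeR's quasi-likelihood test (Benjamini-Hochberg adjusted p = 0.578; 0.037 by DESeq2). Within LY6D- cells it was 1.78 ± 1.05 (edgeR adjusted p = 0.689). Without both doubted libraries the LY6D+ value was 2.20 ± 1.42 (edgeR adjusted p = 0.784). Averaged over both LY6D states it was 2.25 ± 0.74, with an edgeR adjusted p of 0.192, while DESeq2 (adjusted p = 0.0288) and edgeR with library size as the only scaling (adjusted p = 0.0439) did call it.

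Ly6a, the gene of SCA1, checked the second gate. It stood at 3.37 and 13.5 CPM at SCA1low, at 44.9 and 55.5 CPM at SCA1int and at 181 and 245 CPM at SCA1high in LY6D+ cells. In LY6D- cells it stood at 24.8 and 68.8 CPM at SCA1low, at 102 and 148 CPM at SCA1int and at 593 and 477 CPM at SCA1high. Each step was upward without overlap in both LY6D states, a course that 0.0982% of tested genes shared and that the gate itself asked for. The log2 fold change of SCA1high over SCA1low was 4.65 ± 0.82 within LY6D+ cells and 3.51 ± 0.77 within LY6D- cells, and the difference between them, 1.14 ± 1.0, did not pass edgeR's test (adjusted p = 0.787).

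At equal SCA1 labels the Ly6a transcript was lower in LY6D+ cells. The ranges of LY6D+ and LY6D- libraries were apart at all 3 SCA1 levels, with LY6D+ below, which held for 2.38% of tested genes. In the ordering of means LY6D+ SCA1int (50.2 ± 7.46 CPM) and LY6D- SCA1low (46.8 ± 31.1 CPM) were the only neighbours that overlapped (SD, n = 2). Averaged over SCA1 levels the log2 fold change was -1.70 ± 0.42 and passed edgeR's test (adjusted p = 0.0219), with LY6D+ below LY6D- at 3 of 3 levels. Within a single SCA1 level it did not pass edgeR's test. It was -1.33 ± 0.71 for SCA1high (adjusted p = 0.443), -1.32 ± 0.71 for SCA1int (adjusted p = 0.665) and -2.47 ± 0.74 for SCA1low (adjusted p = 0.205). DESeq2 did call the SCA1low comparison (adjusted p = 0.00636). The averaged call was lost in 4 of 20 alternative settings: with limma-trend (-1.66 ± 0.45, adjusted p = 0.0913), without LY6D- SCA1high replicate 1 (-1.66 ± 0.52, edgeR adjusted p = 0.0665), without both doubted libraries (-1.46 ± 0.46, edgeR adjusted p = 0.061), and after subtraction of the shared-gene share (-1.57 ± 0.90, edgeR adjusted p = 0.411). That subtraction took all 795 Ly6a counts of LY6D- SCA1low replicate 2 and all 44 of LY6D+ SCA1low replicate 1. Without LY6D- SCA1low replicate 1, the SCA1low comparison passed (-3.25 ± 0.79, edgeR adjusted p = 0.0139). Whether the SCA1 gates sat at the same protein level in LY6D+ and LY6D- cells is not given in the sources used here.

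**Figure D2:**
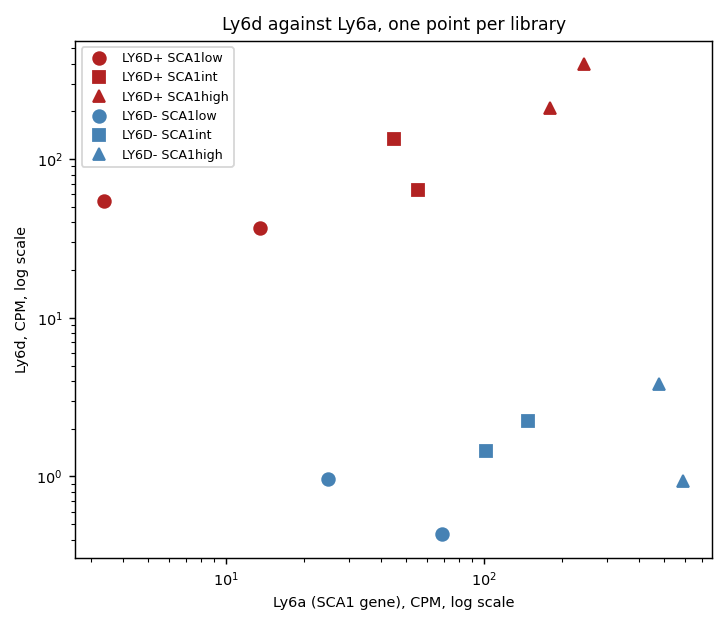
Ly6d against Ly6a in CPM, both axes on a log scale, with 1 point per library, colour for LY6D state and marker for SCA1 level. LY6D+ points lie above 30 CPM of Ly6d and move upward to the right, LY6D- points stay below 4 CPM, and at each SCA1 level the LY6D+ points lie to the left of the LY6D- points.

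Ly6e, which in mice encodes a receptor for the placental fusion protein syncytin-A and is known for its part in viral entry, was the most abundant of the 8 genes by total tags (45648 counts in all). LY6D+ cells had 183 and 415 CPM at SCA1low, 165 and 174 CPM at SCA1int and 210 and 159 CPM at SCA1high. LY6D- cells had 421 and 136 CPM at SCA1low, 264 and 159 CPM at SCA1int and 278 and 404 CPM at SCA1high. In the order of means every neighbouring pair of populations overlapped. Some populations further apart in that order did not: at SCA1high LY6D+ cells lay below LY6D- cells. SCA1int also lay below SCA1low in LY6D+ cells, and SCA1high above SCA1int in LY6D- cells. The share of tested genes with such separations was not computed, so these are given as a description only. The log2 fold change was -0.37 ± 0.34 between LY6D+ and LY6D- cells (edgeR adjusted p = 0.605) and -0.20 ± 0.42 between SCA1high and SCA1low cells (edgeR adjusted p = 0.89), the last turning positive with library size as the only scaling (0.34) and without LY6D- SCA1low replicate 1 (0.23).

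Ly6c1 and Ly6c2 both encode LY6C proteins. LY6C is used as a marker of monocytes, and Ly6c1 is known from endothelium. For Ly6c1, LY6D+ cells had 16.6 and 2.72 CPM at SCA1low, 0.971 and 5.88 CPM at SCA1int and 18.3 and 19.8 CPM at SCA1high. LY6D- cells had 8.17 and 26.1 CPM at SCA1low, 41.9 and 93.3 CPM at SCA1int and 201 and 175 CPM at SCA1high. The highest LY6D+ library thus reached 19.8 CPM, and the LY6D states were apart at SCA1int and SCA1high and overlapped at SCA1low. Averaged over SCA1 levels Ly6c1 was lower in LY6D+ cells (log2 fold change -2.81 ± 0.76, edgeR adjusted p = 0.0437). This call lay near the threshold and was lost in 13 of 20 alternative settings, with adjusted p-values from 0.00013 to 0.152 and fold changes from -4.24 to -2.46. Among these, adjusted p was 0.0516 with RLE size factors, 0.1 without both doubted libraries and 0.0853 after subtraction of the shared-gene share, which removed all 301 Ly6c1 counts of LY6D- SCA1low replicate 2. The call was lost without any 1 of 8 libraries: either LY6D+ SCA1high replicate, LY6D+ SCA1int replicate 1, LY6D+ SCA1low replicate 2, either LY6D- SCA1high replicate, LY6D- SCA1int replicate 2 and LY6D- SCA1low replicate 2. The highest edgeR adjusted p was 0.152, without LY6D- SCA1high replicate 1. Along SCA1, both states had SCA1high above SCA1low without overlap, but the averaged log2 fold change of 2.22 ± 0.91 did not pass edgeR's test (adjusted p = 0.341).

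Ly6c2 was concentrated in a few libraries. LY6D+ cells had 0.0899 and 0.118 CPM at SCA1high against 34.4 and 41.6 CPM in LY6D- cells, where the LY6D- values rest on 440 and 983 counts. At SCA1int LY6D+ cells had 0.0539 and 0.688 CPM and LY6D- cells 0.515 and 0.772 CPM. At SCA1low LY6D+ cells had 16.0 and 0.0778 CPM and LY6D- cells 1.4 and 3.12 CPM, so that LY6D+ SCA1low replicate 1, with 209 counts, stood far above its partner, with 1 count. Within SCA1high the log2 fold change was -8.43 ± 3.56 (edgeR adjusted p = 0.405), and DESeq2 called it at an adjusted p of 0.00195. The course along SCA1 differed between the LY6D states by -10.26 ± 4.33 on the log2 scale (edgeR adjusted p = 0.65, DESeq2 adjusted p = 0.0228). Averaged over SCA1 levels, LY6D+ over LY6D- gave -2.46 ± 1.57 (edgeR adjusted p = 0.408). SCA1high over SCA1low gave -1.06 ± 1.81 (edgeR adjusted p = 0.854) although the mean was 19.1 CPM in SCA1high against 5.15 CPM in SCA1low cells, and without LY6D+ SCA1low replicate 1 it turned to 2.19. Ly6c1, its near-identical copy, stood at 67.6 ± 36.4 CPM in LY6D- SCA1int cells (SD, n = 2), where Ly6c2 was below 1 CPM in both libraries.

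Psca encodes prostate stem cell antigen, first described in human prostate cancer. In LY6D+ cells it stood at 3.29 and 40.7 CPM at SCA1low, at 57.8 and 29.6 CPM at SCA1int and at 86.3 and 150 CPM at SCA1high. In LY6D- cells it stood at 44.4 and 42.9 CPM at SCA1low, at 190 and 90 CPM at SCA1int and at 323 and 137 CPM at SCA1high. SCA1high libraries lay above SCA1low libraries without overlap in both LY6D states, which held for 4.39% of tested genes, and of the 6 tested genes other than Ly6a it held for Psca and Ly6c1. The log2 fold change of SCA1high over SCA1low was 2.43 ± 0.99 within LY6D+ and 2.40 ± 0.99 within LY6D- cells, a difference of 0.03 ± 1.32. Averaged, it was 2.41 ± 0.70 and did not pass edgeR's test (adjusted p = 0.112), whereas it passed in 6 of 20 alternatives, among them DESeq2 (2.12 ± 0.69, adjusted p = 0.0276) and edgeR without LY6D+ SCA1low replicate 2 (3.62 ± 0.86, adjusted p = 0.00385). Without both doubted libraries the averaged value was 2.19 ± 0.78 (edgeR adjusted p = 0.229), and subtraction of the shared-gene share removed all 495 Psca counts of LY6D- SCA1low replicate 2 and all 43 of LY6D+ SCA1low replicate 1. Between LY6D states Psca lay lower in LY6D+ cells without overlap at SCA1low and SCA1int and overlapped at SCA1high, with an averaged log2 fold change of -1.21 ± 0.55 (edgeR adjusted p = 0.206). Without LY6D+ SCA1low replicate 2 that value was -2.11 ± 0.60 (edgeR adjusted p = 0.0321).

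Lypd3, which encodes the urokinase receptor relative C4.4A of stratified squamous epithelium, was a gene of single libraries. In LY6D+ cells it had 166 and 1 counts at SCA1low, 27 and 4 at SCA1int and 392 and 0 at SCA1high, which is 12.7 and 0.0778, 1.46 and 0.212, and 17.6 and 0 CPM. In LY6D- cells it had 0 and 0 counts at SCA1low, 4 and 2 at SCA1int and 0 and 8 at SCA1high, 0.339 CPM at most. In LY6D+ cells replicate 1 therefore held nearly all of its tags at every SCA1 level. The averaged log2 fold change of LY6D+ over LY6D- was 5.76 ± 2.19 (edgeR adjusted p = 0.13), and Lypd3 was called under none of 20 alternatives (adjusted p from 0.068 to 1). An antisense gene, Gm26550, overlaps the 5' end of Lypd3, and 531 of its 585 counts were in LY6D- SCA1low replicate 1, where Lypd3 was at 0. Ly6k, known from testis and sperm, had 0 counts in all 12 libraries.

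**Figure D3:**
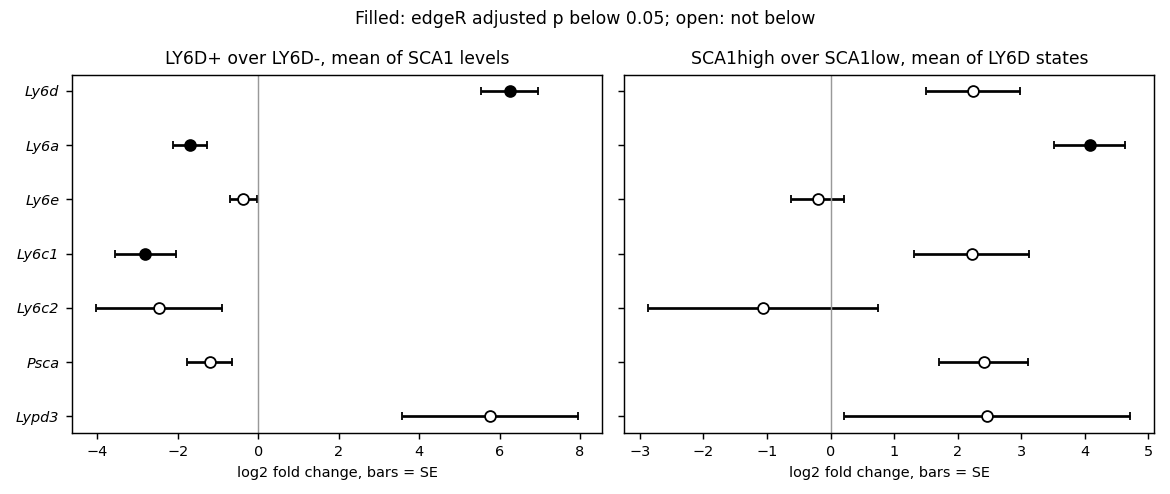
log2 fold change (x axis, bars are SE) of the 7 tested genes for LY6D+ over LY6D- averaged over SCA1 levels (left) and SCA1high over SCA1low averaged over LY6D states (right); filled points have an edgeR adjusted p below 0.05. Besides the gate genes Ly6d (left) and Ly6a (right), Ly6a and Ly6c1 are filled on the left and no gene on the right.

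Counted over the genes that did not define the gate, edgeR called 2 of 6 tested genes between LY6D+ and LY6D- cells averaged over SCA1, 0 higher and 2 lower (Ly6a and Ly6c1), against 2.48% of all tested genes called, 1.27% higher and 1.21% lower. Their median log2 fold change was -1.46 against 0.03 over all tested genes, 5 of 6 were negative, and Lypd3 was positive. At an unadjusted p below 0.05 there were 4 of 6 against 20.4% of all tested genes, and DESeq2 called 2 of 6 against 14.5%. LY6D+ libraries lay below LY6D- libraries without overlap at 2 or more SCA1 levels for 3 of 6 (Ly6a, Ly6c1 and Psca) against 14.1% of tested genes. Within SCA1high, SCA1int and SCA1low alone edgeR called 0 of 6 (background 0.262%, 0.203% and 0.472%), with 2, 1 and 2 at an unadjusted p below 0.05 (background 11.7%, 6.17% and 12%). DESeq2, which called more genes in all 10 comparisons, called 2, 1 and 1 of the 6 there (background 7.41%, 3.48% and 10.9%). For SCA1high over SCA1low edgeR also called 0 of 6 (background 1.21%), with 3 at an unadjusted p below 0.05 (background 12.1%), 2 called by DESeq2 (Ly6d and Psca, background 8.53%), and a median of 2.23 against 0.15 over all tested genes. Split by LY6D state, 0 of 6 were called within LY6D+ cells (background 0.327%; 2 at an unadjusted p below 0.05 with background 8.61%, 2 by DESeq2 with background 6.88%) and 0 of 6 within LY6D- cells (background 0.635%; 2 at an unadjusted p below 0.05 with background 6.65%, 0 by DESeq2 with background 3.84%). SCA1high over SCA1int gave 0 of 6 by edgeR (background 0.138%), with 1 at an unadjusted p below 0.05 (background 8.83%) and 0 by DESeq2 (background 3.38%). SCA1int over SCA1low gave 0 of 6 (background 0.334%), with 0 at an unadjusted p below 0.05 (background 9.65%) and 0 by DESeq2 (background 5%). The interaction gave 0 of 7 (background 0.0393%), with 1 at an unadjusted p below 0.05 (background 7.6%) and 1 by DESeq2 (background 3.22%).

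Markers of other cell types also differed between the populations. For the calls that follow, edgeR's share over all tested genes was 1.27% higher and 1.21% lower in LY6D+ cells. For SCA1high over SCA1low it was 1.21% in either direction. The summed level of 7 endothelial markers was 17.4 and 75.3 CPM at SCA1low, 11.8 and 156 CPM at SCA1int and 174 and 242 CPM at SCA1high in LY6D+ cells. In LY6D- cells it was 163 and 525, 734 and 967, and 2576 and 2649 CPM at the same levels. By edgeR 5 of 7 of these markers were lower in LY6D+ cells and 0 higher, with a median log2 fold change of -3.3, and 3 of 7 were higher in SCA1high cells. Over the 12 libraries, which share depth and sort, Pearson's r of log2 CPM with Pecam1 was 0.87 for Ly6c1, 0.81 for Ly6a, 0.72 for Psca, 0.46 for Ly6c2, 0.21 for Ly6e, -0.48 for Lypd3 and -0.59 for Ly6d. The part of endothelial RNA in the differences of Ly6a, Ly6c1, Ly6c2 and Psca was not tested. Of 23 tested interferon targets 8 were lower and 0 higher in LY6D+ cells, and the summed level of the list of 24 was 1883 and 1947 CPM in LY6D+ SCA1high cells against 6923 and 6676 CPM in LY6D- SCA1high cells. Along SCA1, 3 of 23 were higher in SCA1high cells and 0 lower. Their part was not tested either. All 5 basal markers were higher in LY6D+ cells, with a summed level of 1497 to 4114 CPM in LY6D+ libraries and 34.5 to 1516 CPM in LY6D- libraries. By edgeR 3 of the 5 (Krt5, Krt14 and Krt15) were also higher in SCA1high than in SCA1low cells. Within LY6D+ cells, where Ly6d stepped up with SCA1, the summed basal level was 1497 and 2135 CPM at SCA1low, 3588 and 2338 CPM at SCA1int and 3721 and 4114 CPM at SCA1high. The part of basal RNA in the levels of Ly6d and Lypd3 was not tested. Leukocyte markers summed to 3.76 to 54 CPM in all 12 libraries with 0 of 3 tested called in either main comparison. Smooth muscle, urothelial and erythroid lists summed to 0.47 to 132, 11.1 to 161 and 2.16 to 427 CPM. Fibroblast markers summed to 730 to 1294 CPM in LY6D+ libraries against 208 to 672 CPM in LY6D- libraries. The largest part of each sum was Dcn, the gene of the matrix proteoglycan decorin, at 641 to 894 CPM against 159 to 482 CPM. Of the 6 tested, only Dcn was called, higher in LY6D+ cells (log2 fold change 1.48 ± 0.22, edgeR adjusted p = 0.000141), and 0 were called along SCA1. The median of the 6 was -0.02. Col3a1 (-2.15 ± 0.78), Col1a1 (-1.07 ± 1.06) and Col1a2 (-0.83 ± 0.76) were lower, and Lum (2.11 ± 1.64) and Pi16 (0.78 ± 1.63) higher. The part of fibroblast RNA in the Ly6 values was not tested.

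**Figure D4:**
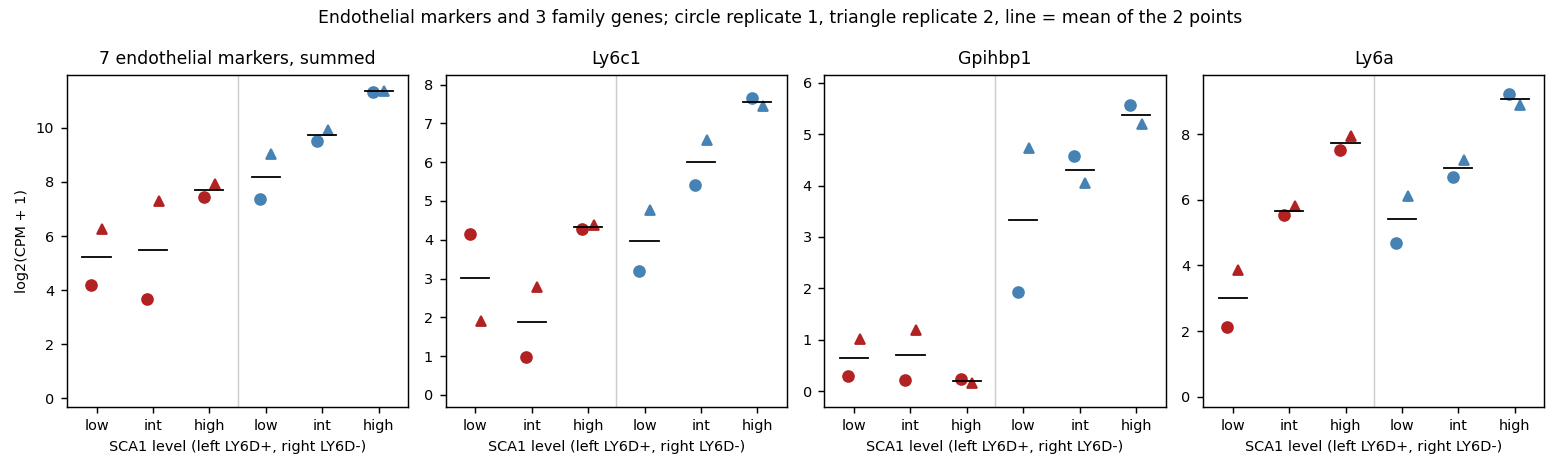
log2(CPM + 1) per library of 7 endothelial markers summed, Ly6c1, Gpihbp1 and Ly6a, by SCA1 level in LY6D+ (left, red) and LY6D- cells (right, blue); circles are replicate 1, triangles replicate 2 and lines the mean of both points. All 4 panels have their highest points in LY6D- SCA1high cells. Ly6a is also high in LY6D+ SCA1high cells, where the endothelial markers sum to 174 and 242 CPM and Gpihbp1 is near 0.

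A wider list of 40 Ly6 and urokinase receptor family genes had 35 found and 13 tested. It gave 2 further lower calls and 0 higher ones between LY6D+ and LY6D- cells, against 1.21% and 1.27% of all tested genes. The median log2 fold change was 0.43 against 0.03 over all tested genes. At an unadjusted p below 0.05 there were 4 of the 13 (20.4% of all), and DESeq2 called 3 (14.5% of all). Cd59a, an inhibitor of the complement membrane attack complex, had 0.46 and 0.389 CPM at SCA1low, 0.216 and 1.75 CPM at SCA1int and 0.045 and 0.353 CPM at SCA1high in LY6D+ cells. LY6D- cells had 67.9 and 15.8, 0.566 and 18.7, and 107 and 25.7 CPM at those levels. LY6D- libraries were mostly above 15 CPM, with the exception of SCA1int replicate 1 at 0.566 CPM, and the log2 fold change was -6.10 ± 1.43 (edgeR adjusted p = 0.0157, call lost in 5 of 20 alternatives, -6.94 ± 1.83 without both doubted libraries). The call was lost without LY6D+ SCA1int replicate 1 (edgeR adjusted p = 0.0662), LY6D- SCA1high replicate 1 (0.0674) or LY6D- SCA1int replicate 2 (0.0593). Gpihbp1, which carries lipoprotein lipase across capillary endothelium, had 0.118 to 1.27 CPM in LY6D+ libraries against 2.8 to 46.2 CPM in LY6D- libraries. It thus lay lower in LY6D+ cells without overlap at all 3 SCA1 levels, which held for 2.38% of tested genes. Its log2 fold change was -5.74 ± 1.56 (edgeR adjusted p = 0.0445), a call lost in 16 of 20 alternatives, with 11 of the 12 libraries left out in turn and without both doubted libraries (-4.87 ± 2.0, edgeR adjusted p = 0.231). Along SCA1, Pate4, a secreted family member of the seminal tract, was the 1 lower call of 13, and 0 were higher. Of all tested genes 1.21% were called there in either direction. At an unadjusted p below 0.05 there were 5 of the 13 (12.1% of all), and DESeq2 called 3 (8.53% of all). Plaur, the urokinase receptor, averaged 78.9 CPM in SCA1high against 10.9 CPM in SCA1low cells without passing (log2 fold change 2.85 ± 1.09, edgeR adjusted p = 0.301). Of 34 genes that make or attach the GPI anchor, 31 were found and 29 tested, and edgeR called 0 in both averaged comparisons, at a summed level of 397 to 766 CPM per library. Between LY6D states 2 of the 29 had an unadjusted p below 0.05 (20.4% of all tested genes) and DESeq2 called 2 (14.5% of all). Between SCA1high and SCA1low 1 had an unadjusted p below 0.05 (12.1% of all) and DESeq2 called 2 (8.53% of all).

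Profiles were compared by Pearson's r of log2 CPM over the 12 libraries, among 8097 tested genes whose mean log2 CPM was 3 or higher. Such r values describe shared libraries and carry no test. Closest to Ly6d were Scarf2 (0.96), Padi1 (0.95), Sdk2 and Clvs1 (both 0.94) and Zfp871 (0.93). Closest to Ly6a were Eln, the gene of elastin, at 0.98, Trim35 and the interferon-inducible GTPase gene Igtp (both 0.96), Ralb and Hoxaas3 (both 0.95). For Ly6c1 they were Cd34 (0.96), a surface sialomucin of endothelium and blood progenitors, Mgll and Gadd45g (both 0.93), Prune1 (0.92) and Crip1 (0.91). For Psca they were Dazap2 (0.92), Mgp, Socs3 and Ddx17 (each 0.9) and Ly6a itself (0.89), although Ly6d, Ly6k and Ly6e lie between Psca and Ly6a on the chromosome. Ly6e had no neighbour above 0.85 (Tyk2, then Rab2a at 0.83 and Ganab, Rpl27-ps2 and Mrpl10 at 0.8), and its r was 0.01 with Ly6a and -0.29 with Ly6d. Ly6c2 was closest to Tbc1d13 (0.9), Cavin3 and Map1s (both 0.88), Nid1 and Rgl1 (both 0.87), and its r with Ly6c1 was 0.68. Lypd3 was closest to Gprc5c (0.88), Lhfp (0.86), Wdr90 (0.85), Slc7a6 and Rbm15 (both 0.84), and its r with Ly6d was 0.53. Ly6d and Ly6a, the genes of both gates, had an r of -0.19 over all 12 libraries.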

How the data were processed

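RNA of 12 libraries was prepared with Lexogen QuantSeq 3' FWD from 10 to 20 ng of total RNA, per the labels' protocols. The submitters' processing notes name STAR 2.5.1, cutadapt 1.9.1, featureCounts of Subread, Picard 1.96, SAMtools 1.3.1 and edgeR, and build mm10. Annotation, settings and the handling of strand are not given in those sources. A count depends little on transcript length, since tags come from the 3' end, and because no molecular identifiers are named, limits from counts cover counting error only.

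The authors deposited raw counts per gene and, as a second table, normalised signal values. In each library the deposited signal was the count divided by 1 factor, within a relative 9.8e-15. Main tests used the counts, fitted with edgeR 4.0.16 under R 4.3.3, using filterByExpr, TMM scaling, 6 population means over 12 libraries, glmQLFit and glmQLFTest, with Benjamini-Hochberg adjustment over 15270 tested genes and calls below 0.05. The SE is the log2 fold change over the root of F, with 6 residual degrees of freedom and a common dispersion of 1.65. The p-values rest on the spread between the 2 libraries of a population, which may be technical. For each gene glmQLFit draws this spread toward a trend over all tested genes, so the p-values also borrow from other genes. Total counts were 8436185 to 20022077 per library. The 446 identifiers without a symbol stayed in the fit.

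Alternatives were DESeq2 1.42.0, limma 3.58.1 (trend) on log2 of the deposited signal plus 1, RLE size factors, scaling by library size alone, no filter, a replicate block, leaving out each library, both doubted libraries left out, and subtraction of shared-gene shares. The subtraction removed from each library the median share found for each source library, over at least 5 genes per pair, and was chosen after seeing the data, since the planned criterion found 0 genes.

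All 8 genes are named, with called genes of the wider lists (at most 6 per comparison), overlapping genes and the 5 closest profiles. The genes and lists were chosen with earlier results of these data known. Plaur was named after its values were seen. Coordinates are from GENCODE M21, counted from 1, and promoters from RefSeq.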

Additional observations from a re-analysis of the deposited data

How the results depend on the processing

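The number of Ly6 genes called between LY6D+ and LY6D- cells, averaged over SCA1 and leaving out Ly6d, was 2, and 1 with RLE size factors or without the filter, 0 without both doubted libraries, 0 after subtraction of shared-gene shares and 0 with limma-trend. Leaving out each library gave 0 to 2, with 0 without LY6D- SCA1high replicate 1. DESeq2 called more than edgeR's 0 within SCA1high (2), within SCA1int (1), within SCA1low (1), for SCA1high over SCA1low averaged (2) and within LY6D+ cells (2), and for the interaction (1), where it called 1132, 532, 1663, 1303, 1051 and 492 of all 15270 tested genes, in the same order. Leaving out each library gave 0 to 1 within SCA1low and 0 to 1 for SCA1high over SCA1low, where library size as the only scaling gave 2. Signs turned for values that passed no test: SCA1high over SCA1low of Ly6e was 0.34 with library size only and 0.23 without LY6D- SCA1low replicate 1, of Ly6c2 2.19 without LY6D+ SCA1low replicate 1 and 0.77 with limma-trend, and of Lypd3 -2.55 without LY6D+ SCA1high replicate 1. With libraries left out in turn these values ran from -0.59 to 0.23 for Ly6e, from -1.7 to 2.19 for Ly6c2 and from -2.55 to 5.56 for Lypd3. The cause of these changes was not tested. With the replicate number as a block, 2 Ly6 genes were called between LY6D states, as without it, and 0 in each other comparison. The deviations of same-numbered libraries correlated at r from -0.28 to 0.21 over 15 pairs of populations, and the main fit did not take the numbers as pairs. With 1 deviation per gene and population, these correlations cannot exclude a pairing, and same-numbered libraries do share a prefix in their column names. Over all genes, LY6D+ against LY6D- gave 379 calls, 2208 with DESeq2, 173 after subtraction and 218 with limma-trend, and SCA1high against SCA1low gave 185 calls and 1303 with DESeq2. The split of higher and lower calls moved from 194 and 185 to 106 and 190 with RLE factors for LY6D. For SCA1high against SCA1low it moved from 66 and 119 to 184 and 77 with library size only and 35 and 157 with RLE factors, as the median of all genes shifted from 0.15 to 0.63 and -0.12. Lypd3 and Ly6c2 had fewer than 40 counts in most libraries, which limits the precision of their levels.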
